A study of Homo sapiens with 61 samples.

Results

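The transcriptional response of wild-type human neurons to vincristine was measured in 8 of the 61 RNA-seq libraries of the series, 4 from treated and 4 from untreated cultures. These 8 libraries were taken by their genotype and treatment labels. All 18235 of 58440 genes that passed an expression filter over the experiment were tested, and none was chosen for its response. The series asks how DLK and LZK, the kinases that relay axon damage, and the transcription factors ATF2 and JUN shape the response of neurons to a microtubule poison. It holds one experiment on knockout lines (32 libraries) and one on knockdown lines (29 libraries).

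Wild type (WT) means cells of the established human induced pluripotent stem cell line WTC11 with an unedited DLK and LZK gene. They carry a doxycycline-driven NGN2 cassette, which turns stem cells directly into excitatory neurons, and the labels put "cortical" in quotation marks. The 4 WT vincristine cultures received 5 nM vincristine and the 4 WT untreated cultures received DMSO, the solvent, both for 16 hours from day 14. The knockout lines are named here only because their libraries share the estimate of spread, and the Control gRNA line (WTC11 neurons with CRISPR interference machinery and a scrambled guide RNA, 5 vincristine and 5 untreated libraries of the other experiment) is used for a comparison at the end. WT is a single line, and the labels do not say whether its 4 libraries per group came from separate differentiations. The p-values rest on the spread within groups over all 32 libraries of that experiment, which may be technical. Poly(A)-selected RNA was sequenced from whole cultures. In such bulk samples, fewer cells of a type and less RNA per cell cannot be told apart.

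Vincristine binds tubulin dimers and takes microtubules apart, which in long axons stalls transport and, in patients, causes neuropathy. Neurons read such damage through DLK and LZK, which activate JNK kinases, and JNK phosphorylates JUN, ATF2 and other AP-1 and ATF factors that switch on both growth and death genes. Stress on translation or on the endoplasmic reticulum (ER) is read by a separate system, the integrated stress response, in which phosphorylated eIF2alpha lets ATF4 be translated and ATF4 turns on genes for amino acid supply. Sterol genes follow SREBP factors, and tubulin mRNAs are themselves degraded when free tubulin rises, a loop known as tubulin autoregulation.

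Levels are given in counts per M (CPM, where M stands for mega) after scaling with TMM factors, in the order replicate 1, 2, 3 and 4. Fold changes are log2, vincristine over untreated, ± the standard error (SE) of the fit, and a gene was called when the edgeR quasi-likelihood test gave it a Benjamini-Hochberg adjusted p-value under 0.05 among the 18235 genes. For the main genes the identifier and the span on GRCh38 (GENCODE 29) are given, and counts were summed over the exons of each gene. Library totals ran from 10.1 to 14.6 M counts in untreated and from 9.65 to 11.6 M in vincristine cultures. Neuronal markers were abundant in the cultures. All 12 pan-neuronal markers passed the filter and summed to 7835 CPM untreated and 8079 CPM with vincristine, with 2 called higher and 3 lower. Among them MAP2 stood at 2337 CPM untreated and 2430 CPM with vincristine and DCX at 1295 and 1607 CPM. Neural progenitor markers summed to 751 CPM untreated, of which NES held 718 CPM. All 10 microglia and macrophage markers stayed under the filter. Markers bearing on the "cortical" label were mixed. Of 20 cortical and forebrain factors 16 passed the filter and summed to 591 CPM untreated, with POU3F2 at 113, BCL11A at 93.9, POU3F1 at 30.0 and NEUROD2 at 23.9 CPM, while FEZF2, NEUROD6 and EMX2 did not pass and TBR1 stood at 0.570 CPM. Of 18 sensory and peripheral factors 14 passed and summed to 828 CPM, of which POU4F1, a homeobox factor of sensory neurons, held 435 CPM.

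One library stood apart. On the first 2 principal components of the 8 WT libraries, which held 55.0% and 26.4% of the variance, treatment separated along the first, and vincristine replicate 4 lay at 44.4 on the second, where the other 7 ran from -21.9 to 8.25. Its departure followed the GC content of genes. Among 12892 protein-coding genes sorted into 5 equal groups by GC content, replicate 4 averaged 0.27 log2 units above the untreated mean in the group with the lowest GC (median 38.4%), and its mean difference was -0.55 in the group with the highest (61.7%). The other 3 vincristine libraries stayed between -0.07 and 0.13 in all 5 groups. Without this library, 3132 genes were called higher and 2918 lower, against 2855 and 2643 with it. Results that rest on it are therefore given with and without it. Where a call is said below to be lost without 1 library, 1 such fit is named. For many of these genes other omissions ended the call too, as for MAPK9 and GINS2, each lost without any 1 of 7 libraries. The counts called on the AP-1, BH3-only, integrated stress response, tubulin and cholesterol lists were the same without it.

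**Figure D1:**
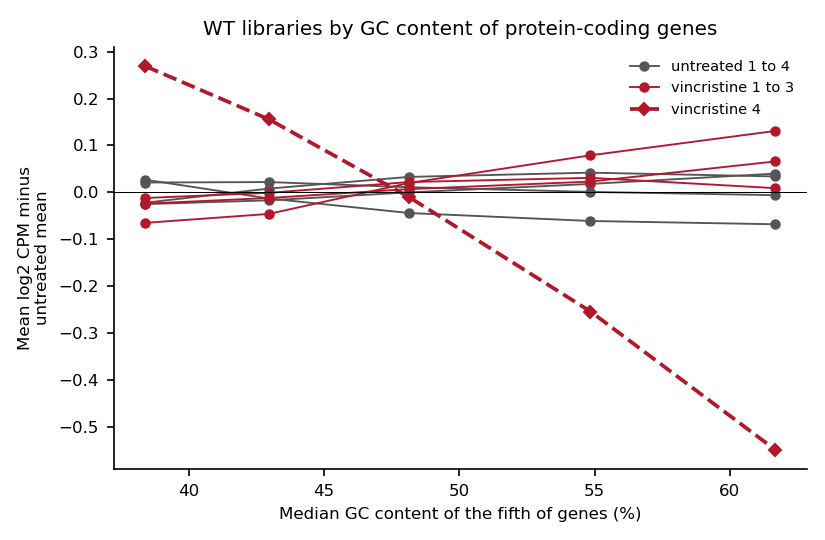
Mean log2 CPM minus the untreated mean (vertical axis) in each of the 8 WT libraries for 5 equal groups of protein-coding genes sorted by GC content (horizontal axis, median of each group in percent). The dashed line with diamonds, vincristine replicate 4, runs from 0.27 down to -0.55, while the 7 other libraries lie close to 0.

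In WT neurons 5498 genes were called, which is 30.2% of those tested. They split almost evenly, with 2855 higher (15.7%) and 2643 lower (14.5%). When the fit held only the 8 WT libraries, 1879 were called higher and 1650 lower, and the reason for the drop was not tested. Changes of at least 2-fold were more often increases, with 676 higher (3.71%) against 306 lower (1.68%), and the median absolute change of a called gene was 0.51. For 4555 genes (25.0%) the 4 vincristine libraries did not overlap the 4 untreated ones. These shares are the background against which the gene groups below can be read. Some lists lay close to them. Examples were caspases and apoptosome genes (14.3% higher and 14.3% lower), motor genes (16.0% and 8.0%) and integrins, laminins and collagens (17.9% and 10.7%). Counts near the background do not set a list apart from all genes.

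Among called genes with a mean log2 CPM of at least 1 and groups apart, those with the highest fold changes fell into a few kinds. SLC7A11, the cystine importer (ENSG00000151012.13, chr4:138164097-138242349), stood at 5.83, 3.63, 2.25 and 3.28 CPM untreated and 126, 107, 119.9 and 154 CPM with vincristine (log2 fold change 5.11 ± 0.18, adjusted p = 1.3e-21). The 2 ranges are far apart, and every vincristine library is at least 18 times the highest untreated one. Next came ARID5A, an RNA-binding protein that stabilises transcripts (4.99 ± 0.21), TNFRSF12A, the receptor for the cytokine TWEAK (4.53 ± 0.26), ABCB1, the efflux pump for which vincristine is itself a substrate (4.14 ± 0.22), and STC2, a secreted glycoprotein of stressed cells (4.08 ± 0.22). EGR1 and ATF3, both early transcription factors, rose by 4.01 and 3.98. INHBE, C11orf96 and NIBAN1 completed the 10 highest at 3.97, 3.91 and 3.84.

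Measured by the CPM gained, the list was different. MALAT1, a nuclear long non-coding RNA, gained most, from 23430 to 29940 CPM, a fold change of only 0.35. NES (nestin, an intermediate filament), STMN4 (a tubulin-binding stathmin), DST (a cytoskeletal linker), RABGAP1L, JUN and ZNF704 were among those that followed. RABGAP1L, a regulator of Rab GTPases, and ZNF704 both rose about as much as STMN4, by 1.16 ± 0.07 and 1.10 ± 0.06 against 1.19 ± 0.06.

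Under the same minimum level, the lowest fold changes were of SDF2L1, a cofactor of the ER chaperone BiP (-2.87 ± 0.31), LIPG, endothelial lipase (-2.45 ± 0.19), TICRR, which starts DNA replication (-2.42 ± 0.25), PCDH8, a protocadherin (-2.35 ± 0.15), and OPRK1, the kappa opioid receptor (-2.31 ± 0.21). TUBA1B, VWC2L, SH2D5, ADRA2A (the alpha-2A adrenergic receptor) and INSIG1 followed at -2.28, -2.20, -2.14, -2.13 and -2.11. Among the largest losses of CPM were those of TUBA1A, NEFM, TUBB, SCD (stearoyl-CoA desaturase, -0.79 ± 0.07), HMGCS1, ONECUT2 (a homeobox factor, -0.57 ± 0.06) and TUBB2B.

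**Figure D2:**
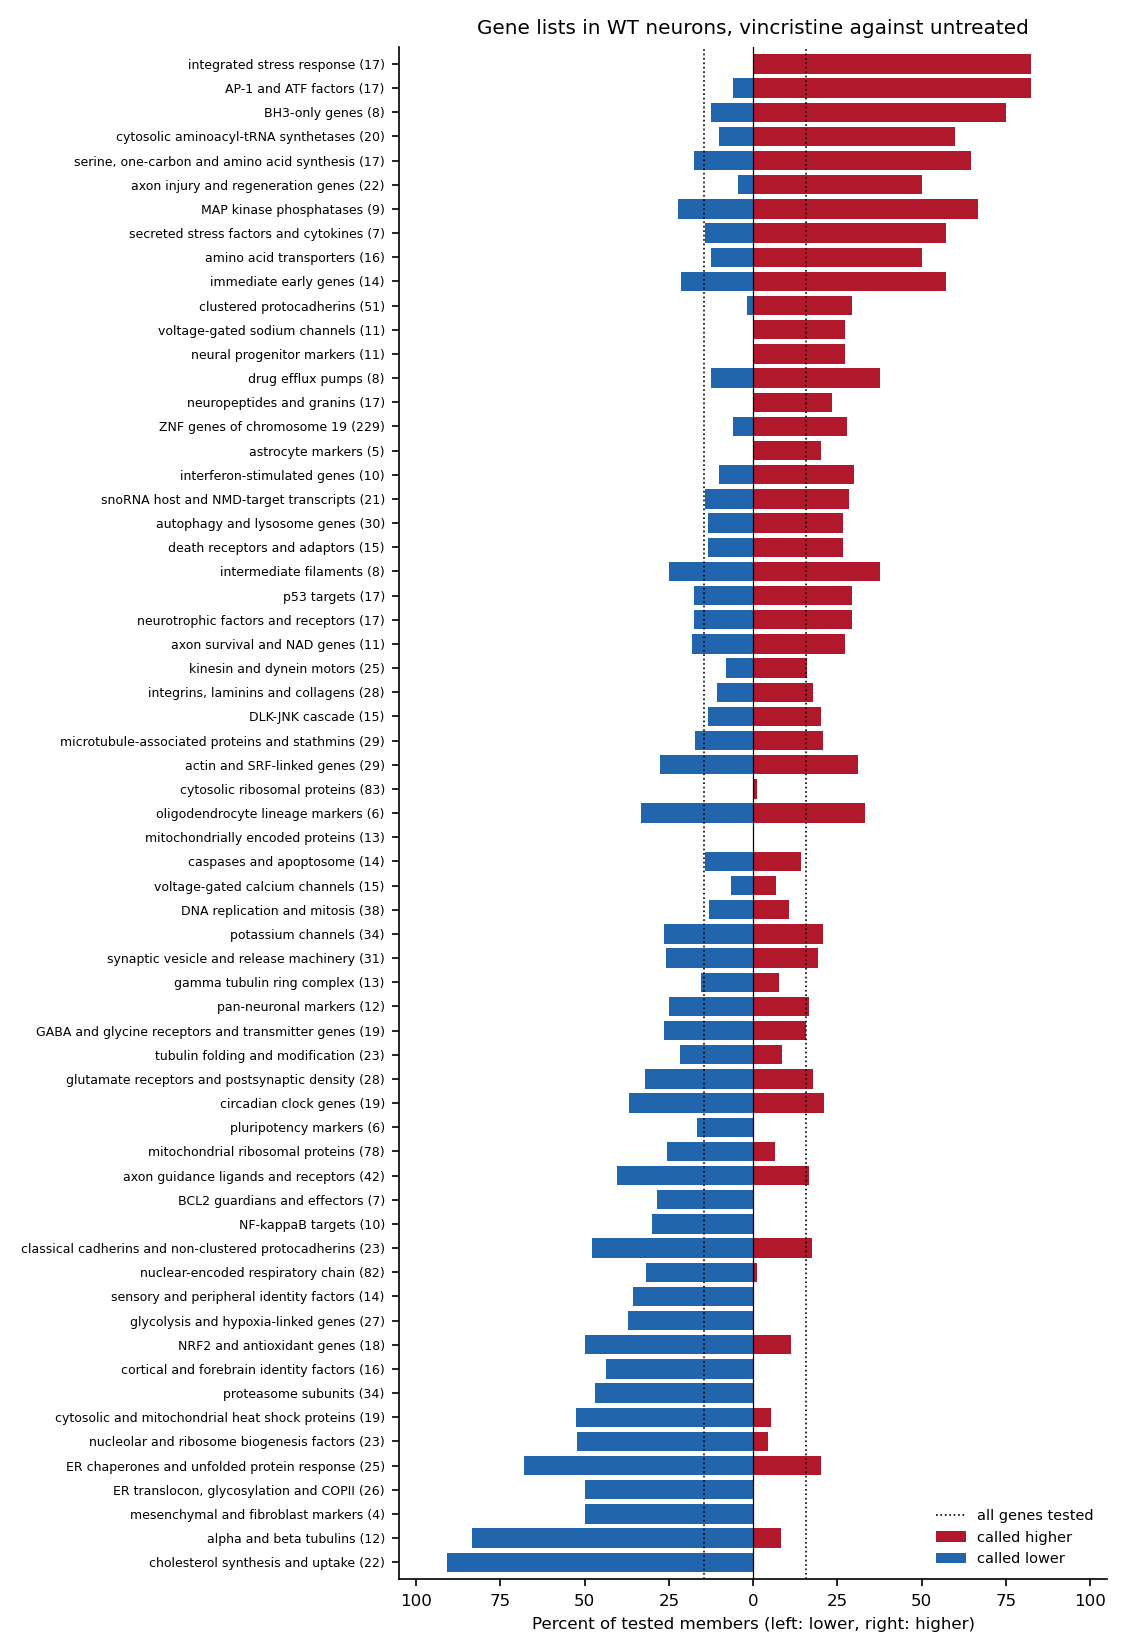
Share of the tested members of each gene list that were called higher (right, red) or lower (left, blue), with the number of tested members in parentheses and dotted lines at the shares over all genes tested (15.7% higher, 14.5% lower). The integrated stress response and AP-1 lists reach farthest to the right (14 of 17 members each), and cholesterol synthesis (20 of 22) and the tubulins (10 of 12) farthest to the left.

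The kinases that carry the damage signal changed little in transcript. In the DLK-JNK list 3 of 15 genes were called higher and 2 lower, with a median of -0.05 (0.00 over all genes). MAPK8IP1, a JNK scaffold, stood at 187, 201, 187 and 184 CPM untreated and 413, 368, 331 and 188 CPM with vincristine. Vincristine replicates 1 to 3 lay well above the untreated libraries and replicate 4 lay among them, so the groups overlapped. Its fold change was 0.78 ± 0.14, and 0.96 without that library. MAP3K13 (LZK) rose by 0.49 ± 0.06 and the scaffold SPAG9 by 0.36 ± 0.05, while MAPK9 (JNK2, -0.13) and MAP3K11 (-0.39) fell slightly. MAP3K12 (DLK) and MAP2K7, a kinase of JNK, were called only without vincristine replicate 4, at 0.33 and 0.42 against 0.20 and 0.23 with it. MAPK8 (JNK1) at 0.04, MAPK10 (JNK3) at 0.06, MAP2K4 at -0.10, MAPK8IP2 at -0.21, MAPK8IP3 at -0.05, MAP3K9 at -0.33, MAP3K10 at -0.10 and SH3RF1 at -0.21 were not called. MAP2K4 (-0.22 without vincristine replicate 4), MAP3K9 (-0.44 without vincristine replicate 3) and SH3RF1 (-0.28 without vincristine replicate 1) were called once 1 library was left out. Leaving out 1 library ended the call of MAPK9 (-0.11 without vincristine replicate 2) and MAP3K11 (-0.24 without vincristine replicate 4).

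The transcription factors at the end of that cascade moved far more. Of 17 AP-1 and ATF factors tested, 14 were called higher and 1 lower, with a median of 0.82. ATF3 (ENSG00000162772.16, chr1:212565334-212620777) stood at 15.1, 14.9, 13.9 and 12.5 CPM untreated and 218, 224, 213 and 234 CPM with vincristine (3.98 ± 0.11, adjusted p = 4e-25). All 4 treated libraries agree closely, at more than 14 times every untreated library. JUN (ENSG00000177606.6, chr1:58780788-58784327) stood at 140.2, 151, 138 and 131 CPM untreated and 629, 570.4, 538 and 289 CPM with vincristine (1.85 ± 0.14), and replicate 4 was the lowest treated library yet still above all untreated ones. CREB5, a partner of JUN in AP-1 dimers, stood at 52.9, 45.3, 47.6 and 48.2 CPM untreated and 300.3, 274, 298 and 288 CPM with vincristine (2.58 ± 0.11), an even rise across the group. FOS (2.91), JDP2 (2.56), ATF5 (1.95), FOSL2 (1.83) and ATF4 (1.09) also rose at least 2-fold with groups apart. JUND (0.82), JUNB (0.40) and the small MAF proteins MAFF (0.71), MAFK (0.56) and MAFG (0.41) rose less, and in each of these 5 vincristine replicate 4 overlapped the untreated libraries. ATF6, the ER stress factor, rose by 0.52 ± 0.08. ATF2, the factor in the title of the series, stood at 151, 149, 142 and 121 CPM untreated and 122, 123, 129 and 170.4 CPM with vincristine and was not called (-0.05), as was ATF1 (0.34), while the close relative ATF7 fell (-0.26). FOSB, FOSL1 and the other members of the list under the filter were not tested. ATF1 (0.38 without vincristine replicate 2) was called once 1 library was left out. Without 1 of the 8 libraries the call was lost for JUNB (0.32 without vincristine replicate 1), MAFK (0.46 without vincristine replicate 1), MAFG (0.28 without vincristine replicate 1) and ATF7 (-0.20 without vincristine replicate 2).

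Immediate early genes, the first genes to respond to a stimulus, were higher in 8 of 14 cases and lower in 3. EGR1 stood at 19.3, 17.6, 17.2 and 20.1 CPM untreated and 371, 308, 325 and 190.5 CPM with vincristine, so that the lowest treated library held over 9 times the highest untreated one. ARC, a synaptic plasticity gene, rose by 2.22 ± 0.17, IER2 by 1.97 ± 0.13, BTG2 by 1.37 ± 0.09 and NR4A1 by 2.04 ± 0.25, the last from only 0.713 CPM. NR4A3, a nuclear receptor of the same family as NR4A1, went the other way and stood at 47.4, 44.8, 52.5 and 51.0 CPM untreated and 17.5, 15.3, 18.4 and 10.5 CPM with vincristine (-1.66 ± 0.10). SRF, which drives many early genes, fell by 0.74 and MYC fell by 0.73, both with groups apart. KLF10, IER3 and NPAS4 were the other genes called higher. NPAS4 reached 1.17 CPM at most, and its groups overlapped. NPAS4 lost its call without any 1 of 6 libraries (0.98 without vincristine replicate 2).

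MAP kinase phosphatases, which switch JNK and its relatives off, rose in 6 of 9 cases and fell in 2. DUSP16, a JNK phosphatase, stood at 43.4, 42.0, 38.5 and 41.4 CPM untreated and 223, 218, 226 and 209 CPM with vincristine (2.41 ± 0.09). The other rises were of DUSP8 (1.21, and 1.43 without vincristine replicate 4), DUSP1 (1.07), DUSP5 (0.95), DUSP14 (0.60) and DUSP10 (0.44). DUSP7 (-0.78) and DUSP4 (-0.39) fell.

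Genes known from axon injury and regeneration were higher in 11 of 22 cases and lower in 1 (3 without vincristine replicate 4). Besides ARID5A, TNFRSF12A and ATF3, GADD45B rose by 2.61 ± 0.23 and GADD45A by 1.76 ± 0.09. SMAD1, a growth factor signal transducer used in regenerating sensory axons, stood at 46.9, 40.9, 40.5 and 43.7 CPM untreated and 148, 141, 160.0 and 178 CPM with vincristine (1.86 ± 0.07), with no overlap. FLRT3 (1.84), STMN4 (1.19), GADD45G (1.09), the calcium channel subunit CACNA2D1 (0.36) and KLF7 (0.33) were the remaining rises. MMP16, a membrane metalloproteinase, fell by 0.83.

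BH3-only genes, whose proteins start mitochondrial apoptosis by binding BCL2 family members, rose as a group, with 6 of 8 called higher and 1 lower and a median of 2.26. HRK, a neuronal member of this class (ENSG00000135116.9, chr12:116856144-116881441), stood at 44.2, 44.5, 38.4 and 46.6 CPM untreated and 395, 337, 377 and 256 CPM with vincristine (2.98 ± 0.12, adjusted p = 2.74e-20). BBC3 (PUMA) stood at 7.65, 5.59, 4.78 and 5.76 CPM untreated and 42.6, 39.2, 36.2 and 22.4 CPM with vincristine (2.58 ± 0.16). In both, replicate 4 was the lowest treated library and still well above every untreated one. BCL2L11 (BIM) stood at 7.55, 7.83, 6.95 and 5.96 CPM untreated and 44.9, 36.1, 38.6 and 34.2 CPM with vincristine (2.44 ± 0.13), PMAIP1 (NOXA) rose by 2.08 ± 0.29 from 1.49 CPM and BMF by 1.47 ± 0.21 from 1.81 CPM. BIK was called higher at 0.0466 CPM untreated and 0.314 CPM with vincristine, counts too low for a fold change. BID, which caspase-8 cleaves, fell by 0.57, and BAD was not called (-0.20). BIK lost its call without any 1 of 5 libraries.

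Transcripts of the proteins that BH3-only members act on did not follow, and protein levels were not measured here. Of 7 BCL2 guardians and effectors none was called higher and 2 were called lower, MCL1 (-0.23 ± 0.05) and BCL2L1 (BCL-xL, -0.34 ± 0.09), both guardians. BCL2L1 stood at 65.3, 65.3, 65.2 and 63.9 CPM untreated and 55.5, 51.9, 57.7 and 39.1 CPM with vincristine, with all treated libraries below all untreated ones. The effectors BAX (0.02) and BAK1 (0.01) and the genes BCL2 (0.12), BCL2L2 (0.15) and BOK (0.16) were not called, though BOK was called higher (0.33) without vincristine replicate 4.

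Among 14 caspases and apoptosome genes 2 were called higher and 2 lower. CASP9, the initiator caspase of the apoptosome, rose by 0.43, while CASP2 (-0.30) and AIFM1, a mitochondrial flavoprotein (-0.50), fell. APAF1, the apoptosome scaffold, stood at -0.01 and XIAP, a caspase inhibitor, at -0.02, neither called. Of 15 death receptors and adaptors, 4 were called higher, TNFRSF10B (TRAIL receptor 2, 1.71), TNFRSF1A (0.91), TNFRSF19 (0.84) and TRAF4 (0.34), and 2 lower, TNFRSF21 (-0.43) and TRAF2 (-0.37). Of 11 axon survival and NAD genes, NMNAT1 (0.59), NAMPT (0.31) and NMNAT2, the labile axonal NAD-synthesising enzyme (0.27 ± 0.05), were called higher, and PARP1 (-0.35) and NADSYN1 (-0.41) lower. NMNAT2 stood at 358 CPM untreated and 431 with vincristine. NAMPT was not called without vincristine replicate 4 (0.23). Leaving out 1 library ended the call of CASP2 (-0.25 without vincristine replicate 2) and TRAF2 (-0.24 without vincristine replicate 4).

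**Figure D3:**
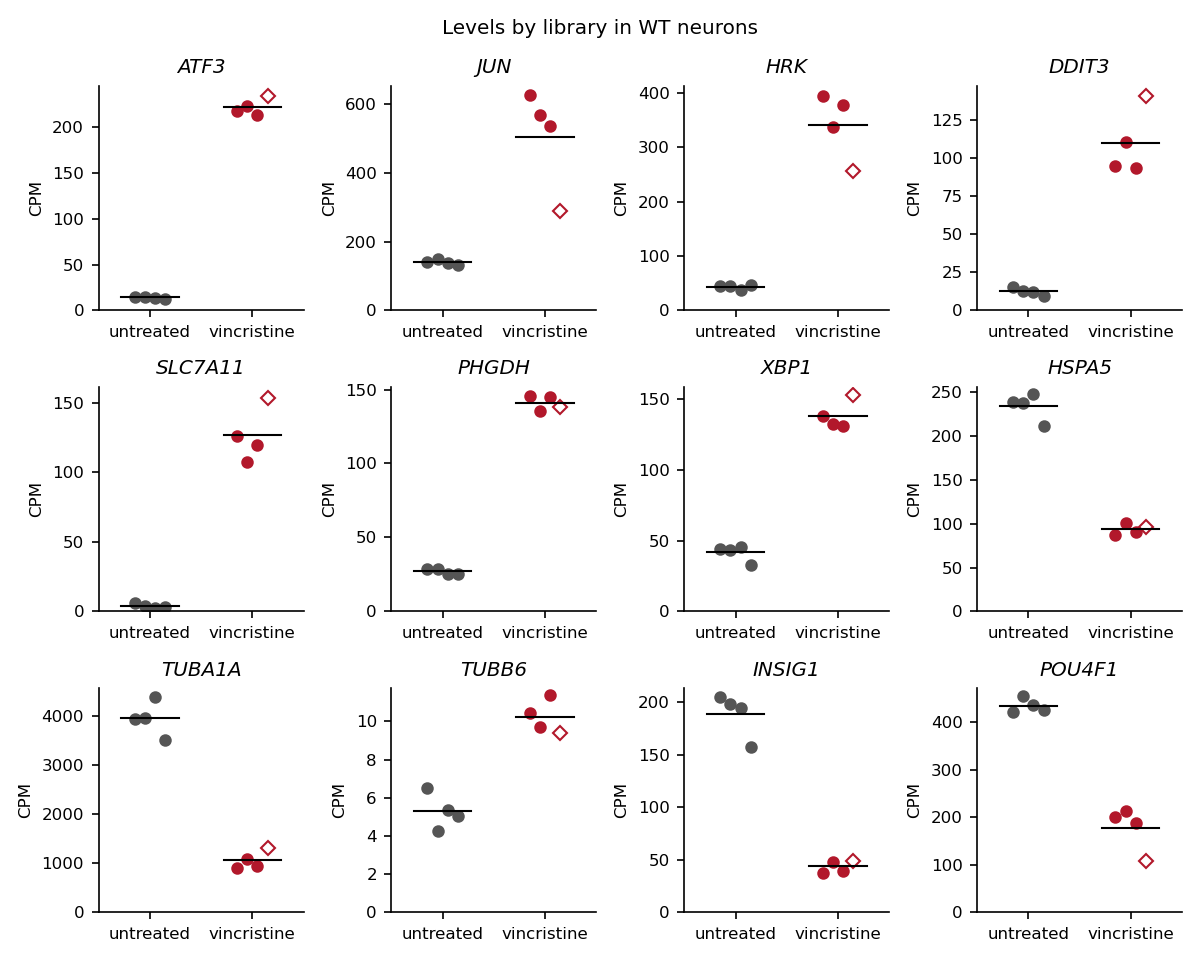
CPM (vertical axis, starting at 0) of 12 genes in the 4 untreated (grey) and 4 vincristine (red) WT libraries, with the group mean as a line and vincristine replicate 4 as an open diamond. In all 12 genes the groups are apart, and in JUN and HRK the diamond is the lowest treated library (289 and 256 CPM), in DDIT3 the highest.

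The integrated stress response rose evenly across the treated libraries. Of 17 genes 14 were called higher, each by at least 2-fold, and none lower, with a median of 1.88. DDIT3 (CHOP), the factor that links this response to death, stood at 15.3, 12.9, 11.9 and 9.74 CPM untreated and 94.6, 111, 93.6 and 141 CPM with vincristine (3.14 ± 0.16). CHAC1, which degrades glutathione, stood at 4.21, 6.43, 5.13 and 5.26 CPM untreated and 37.5, 40.6, 37.9 and 39.4 CPM with vincristine (2.88 ± 0.12). Treated and untreated libraries were apart for both, by more than 5 times at the closest pair. Other rises were of CEBPB (3.00), SESN2 (2.87), TRIB3 (2.44), ASNS (2.25), ATF5 (1.95), DDIT4 (1.70), CEBPG (1.61), PPP1R15A (1.46), VLDLR (1.04) and STC2. ATF4 itself stood at 182, 170.1, 178 and 167 CPM untreated and 337, 387, 321 and 441 CPM with vincristine (1.09 ± 0.09). Of the 4 kinases that phosphorylate eIF2alpha, EIF2AK3 (PERK) rose from 76.1 to 279.9 CPM (1.88 ± 0.06), whereas EIF2AK4 (GCN2, 0.02), EIF2AK2 (PKR, 0.15) and EIF2AK1 (HRI, -0.10) were not called. EIF2AK2 (0.19 without vincristine replicate 2) was called once 1 library was left out.

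The genes that supply amino acids followed. In the list for serine, folate-linked and amino acid synthesis, 11 of 17 were higher and 3 lower. PHGDH, the first enzyme of serine synthesis (ENSG00000092621.12, chr1:119648411-119744226), stood at 28.7, 28.6, 25.4 and 25.6 CPM untreated and 146, 136, 145 and 138 CPM with vincristine (2.38 ± 0.08), an even rise in all 4 libraries. ALDH1L2 (2.42 ± 0.10) and SHMT2 (2.05 ± 0.08), enzymes of the mitochondrial folate cycle, rose by similar amounts, and PSAT1 (1.46), MTHFD2 (1.35), GPT2 (1.19), CTH (1.02), MTHFD1L (0.78), PSPH (0.74) and BCAT1 (0.29) rose less, with ASNS as the remaining member called higher. The 3 genes that fell were the cytosolic counterparts SHMT1 (-0.91) and MTHFD1 (-0.28) and the proline enzyme ALDH18A1 (-0.40). Among 16 amino acid transporters 8 rose and 2 fell. SLC3A2, the heavy chain that SLC7A11 needs at the membrane, rose by 1.46 ± 0.07, SLC1A5 by 1.97 ± 0.11, SLC6A9 by 1.41 ± 0.17 and SLC7A5 by 1.37 ± 0.13, followed by SLC7A1 (1.06), SLC1A4 (0.82) and SLC38A1 (0.32). SLC7A8 (-0.61) and SLC7A6 (-0.52) fell. Without 1 of the 8 libraries the call was lost for MTHFD1 (-0.20 without untreated replicate 3).

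Cytosolic aminoacyl-tRNA synthetases, which load amino acids on tRNAs, were called higher in 12 of 20 cases and lower in 2. CARS1, the enzyme for cysteine, stood at 82.2, 74.9, 82.2 and 78.1 CPM untreated and 229, 212, 234 and 220.5 CPM with vincristine (1.50 ± 0.07), and GARS1 (1.32), TARS1 (1.19) and SARS1 (1.03) also rose at least 2-fold. AARS1 (0.94), YARS1 (0.92), MARS1 (0.81) and WARS1 (0.73) rose by less, EPRS1 (0.46) and IARS1 (0.46) by less again, and NARS1 and LARS1 (0.26 and 0.25) were called only with vincristine replicate 4 in the fit (0.11 and 0.14 without it). FARSA (-0.38) and KARS1 (-0.19) fell. KARS1 lost its call without any 1 of 5 libraries (-0.12 without vincristine replicate 1).

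ATF4 binds DNA as a dimer with C/EBP proteins at a composite element, written here as TGATGNAA and searched on both strands in promoters from 250 bases before to 50 bases after the start of each gene (RefSeq, GRCh38.p14). Of the 37 members of the 4 stress and amino acid lists that were called higher and had a promoter in the table, 13 (35.1%) held it. Of the 19 not called higher, 1 did (5.26%), and over all 11921 tested genes with a promoter the share was 1.67% (199 promoters). By list the element stood in 2 of 16 promoters for the integrated stress response and 4 of 12 for synthesis. The transporters had 3 of 13 and the synthetases 6 of 16. The lists cover genes that ATF4 is known to drive and were written with earlier results of these data known. A share above that of all genes was therefore partly built in. Shown are the 8 matching members with the largest fold changes, 5' to 3' on the strand of the gene, with the match in capitals, either as TGATGNAA or as its reverse complement.

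CHAC1: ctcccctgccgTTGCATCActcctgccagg
ASNS: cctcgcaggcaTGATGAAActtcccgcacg
CARS1: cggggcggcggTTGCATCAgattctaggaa
SLC3A2: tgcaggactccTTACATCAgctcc
TARS1: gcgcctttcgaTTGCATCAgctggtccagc
SLC7A1: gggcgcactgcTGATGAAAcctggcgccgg
AARS1: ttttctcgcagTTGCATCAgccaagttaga
MARS1: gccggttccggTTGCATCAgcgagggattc

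The matches lie on both strands, from 209 bases before the start (CHAC1) to 38 bases after it (SLC3A2, chr11:62881725-62881748). They describe letters in a window and do not show that a factor binds there. Among all genes called higher by at least 2-fold, members of these lists included, 23 of 395 promoters held it (5.82%), and among those called lower by at least 2-fold 2 of 203 (0.985%).

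The AP-1 element TGANTCA stood in 42 of the 395 promoters of genes called higher at least 2-fold (10.6%), in 14 of the 203 called lower (6.90%) and in 4.28% of all tested promoters. The cyclic AMP response element TGACGTCA, the 8-base site that ATF2 and JUN dimers can bind, stood in 6.08%, 0.985% and 3.36% of the same sets. Each motif was searched on both strands and on its own, so matches of different motifs may share letters. For DDIT3, F2RL2 (a protease-activated receptor), YPEL4 and CYTOR (a long non-coding RNA), the 4 printable genes of highest fold change with an AP-1 match, and for PDLIM3, ZNF143, ADAMTS6 and MCAM, those with the cyclic AMP element, the letters are shown so that the 7-base and 8-base forms can be compared.

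DDIT3: gcgcgcgcaTGACTCAcccacctcctc
F2RL2: gaggcttggccTGAGTCAtgcttactgaa
YPEL4: ggggggatggaTGACTCAcagtgttatga
CYTOR: agtggtggctaTGAGTCAgcatgagtcat
PDLIM3: cggcggggcggTGACGTCAcccccagcggg
ZNF143: tcaggcttggcTGACGTCAgttgagtgggc
ADAMTS6: catctgcagacTGACGTCAgtgtgctctgc
MCAM: ccccgccccccTGACGTCAgcccccggcag

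CYTOR holds 2 AP-1 matches, of which the first is in capitals. The antioxidant element TGACNNNGC was not more frequent, at 12.4% of promoters of genes called higher at least 2-fold against 15.0% of all, and the ER stress element TGACGTGG stood at 0.759% against 0.981%.

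ER folding moved in the direction opposite to the integrated stress response. Of 25 chaperones and unfolded protein response genes 17 were called lower and 5 higher, with a median of -0.61. HSPA5 (BiP), the main ER chaperone (ENSG00000044574.7, chr9:125234853-125241330), stood at 239, 238, 248 and 212 CPM untreated and 87.3, 100.4, 91.2 and 96.5 CPM with vincristine (-1.32 ± 0.06, adjusted p = 9.72e-20). MANF, a secreted BiP partner, stood at 28.4, 27.3, 28.2 and 22.9 CPM untreated and 8.91, 9.08, 7.65 and 10.1 CPM with vincristine (-1.58 ± 0.11). For both genes the treated libraries lay close together and far below the untreated ones. CRELD2 (-1.42), PDIA4 (-1.21), CALR (-0.98), PDIA6 (-0.93), DNAJB11 (-0.83), DNAJB9 (-0.82), DNAJC3 (-0.80), HYOU1 (-0.63) and HSP90B1 (-0.59) fell too, and DERL3 fell at low counts (3.47 to 1.18 CPM). The 5 genes that rose were signal or disposal components. XBP1, the factor spliced by IRE1, stood at 44.2, 43.7, 45.6 and 33.0 CPM untreated and 138, 132, 131 and 152 CPM with vincristine (1.73 ± 0.08), ERN1 (IRE1 itself) rose by 1.02 ± 0.18, and HERPUD1 (1.39), EDEM1 (1.22) and SEL1L (0.25) belong to ER-associated degradation. Gene counts do not show how much of XBP1 was spliced.

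The machinery that brings proteins into the ER was lower in 13 of 26 cases and higher in none, by small amounts (median -0.26), led by SEC61G (-0.58), SPCS3 (-0.56), DAD1 (-0.51) and SEC61B (-0.46). In SEC61B and DAD1 vincristine replicate 4 overlapped the untreated libraries, and without it the count was 17. The count was 7 without untreated replicate 1, 5 without vincristine replicate 1 and 8 without vincristine replicate 3. Cytosolic and mitochondrial heat shock proteins were lower in 10 of 19 cases and higher in 1, HSPA9 (0.20, not called without replicate 4). HSPA1A stood at 78.9, 84.7, 85.0 and 72.9 CPM untreated and 50.1, 58.8, 49.5 and 29.9 CPM with vincristine (-0.77 ± 0.12), HSPE1 fell by 0.68, DNAJB1 by 0.67 and HSPH1 by 0.56. HSPA1A and HSPA1B are near-identical copies, so their counts may be divided between them. SEC61G (-0.45 without vincristine replicate 3) and SEC61B (-0.35 without vincristine replicate 3) each lost the call without any 1 of 4 libraries. DAD1 lost it without 1 library (-0.37 without vincristine replicate 1).

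The tubulins, the targets of the drug, lost more CPM than any other list described here. Alpha and beta tubulins summed to 7162 CPM in untreated and 2189 CPM in vincristine cultures, 30.6% of the untreated level, with library sums of 7124, 7206, 7807 and 6513 against 2012, 2229, 2012 and 2501 CPM. Of 12 genes 10 were called lower and 1 higher, with a median of -1.53. TUBA1A (ENSG00000167552.13, chr12:49184796-49189324) stood at 3939, 3959, 4387 and 3505 CPM untreated and 893, 1086, 941 and 1315 CPM with vincristine (-1.90 ± 0.10) and TUBA1B at 438, 446, 491 and 394 CPM untreated and 74.9, 91.8, 81.5 and 117 CPM with vincristine (-2.28 ± 0.11). TUBB4B (-1.86 ± 0.08), TUBB4A (-1.80 ± 0.09), TUBB (-1.58 ± 0.08) and TUBB2A (-1.50 ± 0.07) fell to between 27.6% and 35.4% of their untreated means. TUBB2B (-1.06), TUBA4A (-0.96), TUBA1C (-1.55, from 3.51 CPM) and TUBB3 (-0.90) completed the falls, and TUBA8 at under 1 CPM was not called. TUBB6 was the exception, at 6.50, 4.29, 5.34 and 5.07 CPM untreated and 10.4, 9.71, 11.4 and 9.38 CPM with vincristine (0.95 ± 0.16), with the groups apart. TUBB3 stood at only 36.8 CPM although it is abundant in neurons, and its exons overlap a readthrough gene on the same strand in GENCODE 29, so its count is uncertain. Tubulin genes are close copies, and how the authors counted reads that match several of them is not given in the sources used here.

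Other parts of the microtubule system moved little or unevenly. In the list around the gamma tubulin ring complex, which seeds microtubules, TUBG1 stood at 44.3, 41.9, 43.7 and 38.5 CPM untreated and 14.2, 14.4, 11.3 and 13.5 CPM with vincristine (-1.66 ± 0.09), MZT1 fell by 0.65 and TUBE1, epsilon tubulin, rose by 1.30 ± 0.12, while the other 10 of 13 genes were not called. Tubulin folding and modifying genes were lower in 5 of 23 cases and higher in 2, TTL (0.38) and TTLL7 (0.22), which ligate tyrosine and glutamate to tubulin. VASH2, which removes the terminal tyrosine, fell by 0.60, and the chaperonin subunits CCT5 (-0.25), TCP1 (-0.24) and CCT7 (-0.23) and TBCB (-0.24) fell slightly. Without vincristine replicate 4 the counts were 10 lower and 3 higher, and without untreated replicate 1 or 3 or vincristine replicate 1 or 3 the count lower was 3. Leaving out 1 library ended the call of TTLL7 (0.16 without vincristine replicate 4), CCT5 (-0.18 without vincristine replicate 1) and TCP1 (-0.18 without untreated replicate 1).

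Among 29 microtubule-associated proteins and stathmins 6 were higher and 5 lower, or 9 and 6 without vincristine replicate 4, and 2 or 3 lower without any 1 of untreated replicates 1 to 3 and vincristine replicates 2 and 3. STMN4 stood at 329, 333, 335 and 315 CPM untreated and 724, 746, 719 and 812 CPM with vincristine, with the groups far apart. ARHGEF2, an exchange factor for small GTPases that microtubules hold inactive, rose by 0.97 ± 0.09. CLASP2 (0.34), MAP7 (0.34), DCX (0.31) and DCLK1 (0.19) were the other rises. MAP1A (-0.58), the severing enzyme FIGN (-0.57), MAPRE3 (-0.20), MAPRE2 (-0.17) and SPAST (-0.16) fell. Of 25 motor genes 4 rose, led by DCTN2 (0.39) with DYNC1I1 (0.27), DYNC1LI2 (0.26) and KIF2A (0.16), and 2 fell, KIF26B (-0.99 ± 0.14) and the dynein light chain DYNLL1 (-0.57). Without vincristine replicate 4 the counts were 6 and 6. Without 1 of the 8 libraries the call was lost for MAP7 (0.26 without untreated replicate 3), MAPRE3 (-0.12 without vincristine replicate 4), MAPRE2 (-0.14 without vincristine replicate 1), SPAST (-0.14 without vincristine replicate 3) and KIF2A (0.10 without vincristine replicate 4).

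Intermediate filaments moved in both directions. VIM, vimentin, stood at 54.9, 54.0, 51.2 and 47.5 CPM untreated and 154, 148, 135 and 140.5 CPM with vincristine (1.48 ± 0.07), and NES, the filament of neural progenitors, stood at 713, 746, 702 and 709 CPM untreated and 1919, 1750, 1552 and 894 CPM with vincristine (1.09 ± 0.14). SYNM rose by 1.02, with replicate 4 inside the untreated range. The neurofilament genes NEFM (-0.48 ± 0.09) and NEFH (-0.79 ± 0.15) fell, while NEFL (-0.13), INA (-0.15) and PRPH (-0.39) were not called. Actin-linked genes were mixed, with 9 of 29 higher and 8 lower (5 without vincristine replicate 1). ZYX (zyxin, 0.97), RHOC (0.95) and CCN2 (0.71) were among the rises. RND3 (-0.52), CNN3 (-0.47), PFN1 (-0.36) and RHOA (-0.33) led the falls. INA (-0.18 without vincristine replicate 2) and PRPH (-0.58 without vincristine replicate 3) were called once 1 library was left out.

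Cholesterol synthesis and uptake was the list with the highest share called lower, 20 of 22 with none higher, a median of -1.02 and all 20 with groups apart. Its summed level was 7629, 7370, 7462 and 6460 CPM in the untreated libraries and 3599, 4267, 3695 and 3909 CPM with vincristine, 53.5% of the untreated mean. INSIG1, the protein that holds SREBP in the ER (ENSG00000186480.12, chr7:155297776-155310235), stood at 205, 198, 194 and 158 CPM untreated and 37.9, 48.4, 39.6 and 48.7 CPM with vincristine (-2.11 ± 0.09, adjusted p = 1.44e-19). Enzymes along the path fell with it, from HMGCS1 (-0.84), MVK (-1.66) and IDI1 (-1.40) through SQLE (-1.17) and LSS (-0.92) to MSMO1 (-1.28), SC5D (-1.27) and DHCR7 (-1.24). STARD4, a sterol carrier, fell by 1.94 ± 0.12.

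**Figure D4:**
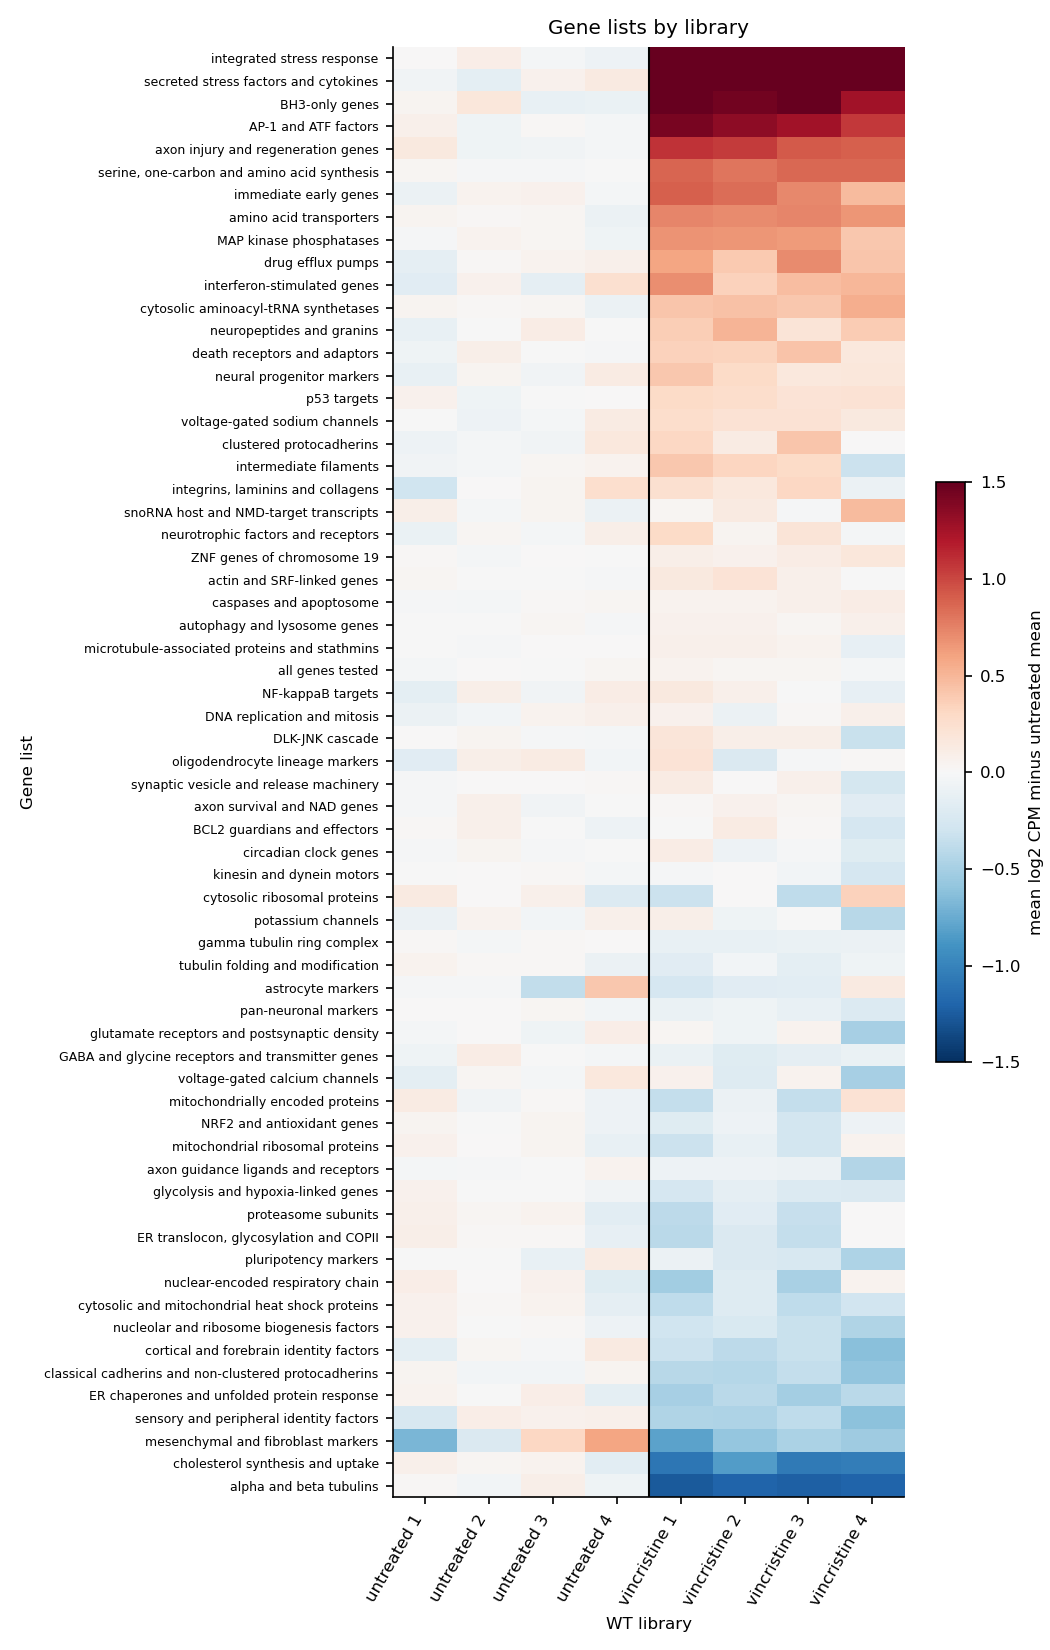
Mean log2 CPM of each gene list (rows) minus its untreated mean in the 8 WT libraries (columns), from blue (-1.5 or below) through white (0) to red (1.5 or above). The integrated stress response is red in all 4 vincristine columns (1.74 to 1.93) and cholesterol synthesis blue (-1.08 to -0.84), whereas cytosolic ribosomal proteins stand at -0.33, 0.01, -0.38 and, in vincristine replicate 4, 0.34.

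In energy and protein turnover lists the genes called were mostly lower, but most members were not called. Of 27 glycolysis and hypoxia-linked genes 10 were lower and none higher, led by SLC2A1 (the glucose importer GLUT1, -1.01 ± 0.11) and PFKFB4 (-0.64), with BNIP3 (-0.46) and ALDOC (-0.44). Of 82 nuclear-encoded respiratory chain subunits 26 were lower and 1 higher, NDUFA4L2 (0.49), with a median of -0.29. Their summed level was 7044, 6605, 6899 and 5809 CPM untreated and 4608, 5783, 4796 and 7071 CPM with vincristine, so replicate 4 lay just above the untreated range and the other treated libraries below it. Without that library 52 of 82 were called lower, and without untreated replicate 1, 2 or 3 or vincristine replicate 1 or 3 the counts were 16, 17, 15, 13 and 11. Mitochondrial ribosomal proteins were lower in 20 of 78 cases and higher in 5 (30 and 3 without it, and 2 higher without untreated replicate 4). Their summed level in vincristine replicate 4, 2455 CPM, also lay above the untreated range of 2135 to 2418 CPM. Proteasome subunits were lower in 16 of 34 cases (21 without vincristine replicate 4, and 7, 9, 6 and 5 without untreated replicate 1 or 3 or vincristine replicate 1 or 3). None of the 13 mitochondrially encoded proteins was called, and 2 were called lower without vincristine replicate 4.

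Cytosolic ribosomal proteins, 83 genes, had 1 called higher, RPS29 (0.47), and none lower, and 10 called lower without vincristine replicate 4. Their summed CPM also varied widely among treated libraries, at 13810, 17450, 13550 and 21830. Nucleolar and ribosome biogenesis factors were lower in 12 of 23 cases and higher in 1, RRP12 (0.44). RRS1 (-1.06), RRP9 (-0.94), DKC1 (-0.55) and BOP1 (-0.48) fell most.

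Several neuronal identity factors fell and none on either list rose. Of 16 cortical and forebrain factors 7 were lower, with POU3F2 at 118, 113, 109 and 113 CPM untreated and 63.4, 58.9, 49.8 and 41.4 CPM with vincristine (-1.08 ± 0.09), NEUROD2 at -0.72, BCL11A at -0.71 and POU3F1 at -0.69. Of 14 sensory and peripheral factors 5 were lower. POU4F1 stood at 423, 455, 437 and 425 CPM untreated and 201, 213, 188 and 108 CPM with vincristine (-1.29 ± 0.12), every treated library below every untreated one and replicate 4 the lowest. POU4F2 (-0.73), TLX3 (-1.78, from 3.26 CPM) and DRGX (-0.50) fell as well, and PHOX2A was called at 0.336 CPM, too low for a fold change. Pan-neuronal markers changed less, with 2 of 12 higher, DCX and SNAP25 (0.24), and 3 lower, SYT1 (-0.36), ELAVL4 (-0.37) and TUBB3. MAP2 (0.06), NCAM1 (0.12), RBFOX3 (-0.02) and UCHL1 (0.02) were not called. NCAM1 (0.22 without vincristine replicate 4) was called once 1 library was left out. PHOX2A lost its call without any 1 of 4 libraries.

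Synaptic genes moved in both directions. Of 31 vesicle and release genes 6 were higher (19.4%) and 8 lower (25.8%), against 15.7% and 14.5% over all genes tested. With vincristine replicate 4 left out the counts were 11 and 8. SYN3 (0.89 ± 0.10), SV2C (0.69), SYT11 (0.67 ± 0.05) and the vesicular glutamate transporter SLC17A6 (0.38) rose. CPLX1 (-0.56), UNC13A (-0.53), the second glutamate transporter SLC17A7 (-0.40) and SYT1 fell. Of 28 glutamate receptor and postsynaptic genes 5 were higher and 9 lower, with a median of -0.26. Without vincristine replicate 4 the counts were 5 and 7 and the median was -0.10. The scaffolds DLG2 (1.02 ± 0.09), HOMER1 (0.91 ± 0.08) and HOMER2 (0.54) rose, and so did GRIA4 (0.38), while the receptor subunits GRIK3 (-0.78), GRIN2B (-0.49) and GRIA1 (-0.45) and the adhesion protein NLGN3 (-0.49) fell most. Of 19 inhibitory receptor and transmitter genes 3 rose, GLRA1 (1.48, from 0.441 CPM), GABRB1 (0.74) and GABRA2 (0.40), and 5 fell (3 without untreated or vincristine replicate 1), among them GABRG3 (-1.17), GABRA5 (-0.98) and GLRA3 (-0.51), with SLC32A1 at under 1 CPM. SV2C lost its call without any 1 of 3 libraries (0.59 without vincristine replicate 3) and SLC32A1 without any 1 of 4. GRIA1 (-0.32 without untreated replicate 4) and GABRA2 (0.30 without untreated replicate 3) each lost it without 1 library.

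Ion channels were divided in the same way. Of 34 potassium channel genes 7 rose (20.6%) and 9 fell (26.5%), against 15.7% and 14.5% over all genes tested. With vincristine replicate 4 left out 9 rose and 7 fell, and the median turned from -0.16 to 0.04. KCNA1 stood at 0.191, 0.746, 0.492 and 0.795 CPM untreated and 4.05, 5.13, 5.04 and 3.23 CPM with vincristine (2.97 ± 0.30), a rise from almost no transcript, and KCNH5 (0.99), KCNH1 (0.80) and KCNA3 (0.70) followed. KCNJ3 fell by 1.07, KCNH7 by 0.64 and KCNC1 by 0.56. Of 11 sodium channel genes 3 rose, among them SCN9A (0.23) and NALCN (0.21), and none fell. Of 15 calcium channel genes CACNA2D1 rose and CACNB2 fell (-0.32). Leaving out 1 library ended the call of KCNA3 (0.53 without vincristine replicate 3), SCN9A (0.20 without untreated replicate 3), NALCN (0.19 without untreated replicate 3) and CACNB2 (-0.25 without untreated replicate 3).

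Axon guidance genes were lower in 17 of 42 cases and higher in 7 (17 and 9 without vincristine replicate 4, where the median was -0.12 against -0.23 with it). UNC5B, a netrin receptor that can signal death when unbound, stood at 6.12, 4.85, 4.92 and 5.17 CPM untreated and 92.4, 74.2, 69.2 and 42.0 CPM with vincristine (3.73 ± 0.22), every treated library over 6 times the highest untreated one. EFNB2 (0.68), NRP2 (0.49) and SEMA3A (0.36) rose less. SEMA3D (-1.27), EPHA5 (-0.98), EFNA3 (-0.83) and EPHA7 (-0.80) fell most, and all 17 falls had groups apart. Cell adhesion molecules of the cadherin family fell more often than they rose, 11 of 23 against 4. PCDH8, CDH20 (-1.78 ± 0.15), CDH7 (-1.16 ± 0.08) and CDH8 (-1.10 ± 0.07) fell most, and CDH6 (0.75), PCDH9 (0.50), CDH13 (0.25) and PCDH11X (0.17) rose. Without 1 of the 8 libraries the call was lost for NRP2 (0.39 without vincristine replicate 3), CDH13 (0.18 without vincristine replicate 3) and PCDH11X (0.13 without vincristine replicate 4).

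The protocadherins of the 3 gene clusters had 15 of 51 called higher and 1 lower, PCDHAC2 (-0.38), none of the rises reaching 2-fold, and a median of 0.18. The count called higher was 21 without vincristine replicate 4 and 8 without vincristine replicate 3. In Control gRNA neurons, described at the end, the counts leaned the other way, with 1 of 50 higher, 7 lower and a median of -0.13. No clustered protocadherin was called in opposite directions in the 2 lines, and the difference between the lines was not tested. In WT all treated libraries lay above all untreated ones for 5 of the 51. The variable exons of clustered protocadherins lie within one another's transcription units and share constant exons, so reads may be assigned to several of them. Integrins, laminins and collagens were higher in 5 of 28 cases and lower in 3. ITGA8 (3.51 ± 0.25, from 0.766 CPM), ITGAV (1.55 ± 0.11), ITGA6 (0.81), ITGB8 (0.66 ± 0.08) and LAMC1 (0.25) rose, and ITGB1 (-0.19), LAMB1 (-0.32) and COL5A1 (-0.70) fell. COL5A1 was not called without replicate 4. PCDHAC2 lost its call without 1 library (-0.35 without untreated replicate 2). ITGA6 lost it without any 1 of 3 libraries (0.52 without vincristine replicate 3). LAMC1 did so without any 1 of 5 (0.18 without vincristine replicate 3) and ITGB1 without any 1 of 6 (-0.13 without vincristine replicate 1).

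Several secreted signals rose. Of 7 secreted stress factors tested (of 21 listed), 4 were higher. Apart from STC2 and INHBE, these were STC1 at 4.30, 4.10, 5.27 and 4.57 CPM untreated and 28.9, 31.1, 32.9 and 34.5 CPM with vincristine (2.79 ± 0.14) and VEGFA, the vascular growth factor, at 22.8, 19.5, 21.4 and 15.8 CPM untreated and 106, 98.3, 89.0 and 71.3 CPM with vincristine (2.19 ± 0.16). CSF1 was called lower, from 1.34 to 0.604 CPM. Neuropeptides and granins were higher in 4 of 17 cases and lower in none, with SCG2 at 184, 158, 184 and 164 CPM untreated and 385, 448, 412 and 528 CPM with vincristine (1.36 ± 0.09), VGF at 1.14 (1.35 without vincristine replicate 4, which overlapped the untreated libraries), CALCB from 0.538 CPM and NPPC from 1.29 CPM. Among 17 neurotrophic genes BDNF rose by 1.95 ± 0.21 from 1.68 CPM, and MET (1.75), CNTF (1.25), NTRK2 (0.35) and CNTFR (0.33) rose, whereas RET (-0.78 ± 0.12) and its coreceptor GFRA1 (-0.60 ± 0.07), which together bind GDNF, fell with SORT1 (-0.37). The clock list was split. BHLHE40 stood at 1.24, 1.12, 0.773 and 0.795 CPM untreated and 13.4, 9.35, 11.3 and 9.71 CPM with vincristine (3.48 ± 0.24), BHLHE41 (1.41), NFIL3 (0.52) and PER1 (0.33) rose, and PER3 (-1.87 ± 0.12), NR1D1 (-1.29), TEF (-0.80), DBP (-0.74), CRY1 (-0.43), CLOCK (-0.39) and BMAL2 (-0.29) fell, 4 higher and 7 lower of 19. CSF1 (-1.01 without untreated replicate 3) and CNTFR (0.25 without vincristine replicate 1) each lost the call without 1 library. PER1 lost it without any 1 of 6 (0.25 without vincristine replicate 3) and DBP without any 1 of 5 (-0.61 without untreated replicate 3).

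Drug efflux pumps included 3 rises among 8 genes. ABCB1 stood at 0.669, 0.652, 0.913 and 1.29 CPM untreated and 16.5, 12.1, 17.7 and 16.6 CPM with vincristine, and ABCA1 (0.81) and ABCC5 (0.17) rose less, while ABCC1 fell (-0.44). Of 17 genes known as p53 targets 5 were higher and 3 lower. CDKN1A (p21) stood at 2.96, 1.86, 2.11 and 2.98 CPM untreated and 26.9, 21.4, 23.9 and 20.9 CPM with vincristine (3.24 ± 0.22) and POLH (0.74) and XPC (0.29) rose with TNFRSF10B and BTG2, but TIGAR (-1.30 ± 0.12), ZMAT3 (-0.69) and TP53INP1 (-0.51) fell, and the median was -0.05. NRF2 and antioxidant genes were lower in 9 of 18 cases (5 without vincristine replicate 3) and higher in 2. NFE2L2, which encodes NRF2, rose by 0.94 ± 0.11 and SQSTM1 by 0.46, while TXN (-0.61), TXNRD1 (-0.55), GCLC (-0.48) and PRDX1 (-0.46) fell. Autophagy and lysosome genes were higher in 8 of 30 cases and lower in 4, with ATG7 (0.50), MAP1LC3B (0.48) and TFE3 (0.47) among the rises and WIPI1 (-0.60) the lowest. Leaving out 1 library ended the call of ABCC5 (0.15 without vincristine replicate 3), TXN (-0.50 without vincristine replicate 1) and PRDX1 (-0.33 without vincristine replicate 1).

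Replication and mitosis genes were near the background, with 4 of 38 higher and 5 lower. TOP2A, CDC6, CCNA2 and MCM7 rose by 0.21 to 0.83, and besides TICRR, CDCA7 (-0.88), PCNA (-0.64), GINS2 (-0.59) and CCNB1 (-0.58) fell. Of 10 interferon-stimulated genes IRF1 (2.72 ± 0.26), ISG15 (1.71 ± 0.23) and RIGI (0.88) were higher, from 0.959, 1.50 and 2.30 CPM, and 1 was lower. Of 10 NF-kappaB targets none was higher and 3 were lower, SOD2, NFKB1 and NFKBIB. Of 21 snoRNA host and decay-sensitive transcripts 6 were higher, led by GADD45B with TRA2B (0.51), EPB41L4A-AS1 (0.45) and SNHG12 (0.41), and SRSF3 (-0.39), SRSF2 (-0.24) and HNRNPDL (-0.17) were lower. Without vincristine replicate 4 the counts were 5 higher and 5 lower, and the median turned from 0.07 to -0.06. Without 1 of the 8 libraries the call was lost for TOP2A (0.67 without vincristine replicate 1), MCM7 (0.18 without vincristine replicate 1), GINS2 (-0.53 without vincristine replicate 1), CCNB1 (-0.49 without untreated replicate 2), NFKB1 (-0.29 without vincristine replicate 2), NFKBIB (-0.33 without vincristine replicate 4), SNHG12 (0.33 without untreated replicate 4) and HNRNPDL (-0.13 without vincristine replicate 1).

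Lists of markers of other cell types differed. Of 10 astrocyte markers 5 passed the filter, GFAP, AQP4, ALDH1L1, GJA1 and AGT did not, and only SOX9 was called (0.87, 3.58 to 6.50 CPM). The summed level of this list was 293 to 311 CPM untreated and 290 to 324 CPM with vincristine, nearly all from SLC1A2, a glutamate transporter that neurons also make. Oligodendrocyte markers summed to 59.6 to 63.1 CPM untreated and 50.8 to 63.0 CPM with vincristine, with MBP (0.26) and OLIG2 higher and CNP (-0.28) among those lower, OLIG2 (0.184 to 0.969 CPM) at low counts. In the mesenchymal list THY1, which neurons express, fell (-0.68) and PDGFRB was called lower at 0.618 and 0.243 CPM, and 6 of 10 members did not pass the filter. This list summed to 95.6 to 103.9 CPM untreated and 55.9 to 66.0 CPM with vincristine, with no overlap. Of 6 pluripotency markers LIN28A alone was called (-0.84), and POU5F1 and NANOG did not pass the filter. Neural progenitor markers were higher in 3 of 11 cases, among them NES and TOP2A, and summed to 736.5 to 778 CPM untreated and 926 to 1955 CPM with vincristine, also with no overlap and almost all from NES. SOX2 (-0.13) and PAX6 (-0.06) were not called. MBP lost its call without either of 2 libraries (0.23 without untreated replicate 3). CNP (-0.18 without vincristine replicate 4) and LIN28A (-0.68 without untreated replicate 1) lost it without any 1 of 4, and PDGFRB without any 1 of 6.

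Gene classes also differed. Protein-coding genes were called higher in 16.7% and lower in 18.2% of 13507 cases, but long non-coding genes in 14.9% and 4.86% of 2652 cases, with a median of 0.16. Pseudogenes were higher in 11.1% and lower in 3.54% of 1270 cases. These classes were not compared at matched levels. The lowest of 5 equal groups of protein-coding genes by untreated level had 15.7% higher and 6.18% lower, near the shares of long non-coding genes. Among protein-coding genes the share called lower climbed with the untreated level, from 6.18% in the lowest of 5 equal groups to 24.7% in the highest. The share called higher was 15.7%, 19.4%, 17.4%, 16.3% and 14.8% in the same order. The groups were formed from the untreated libraries that also enter the fold change, and low counts make calls harder. The trend therefore cannot be read as an effect of vincristine on abundant genes.

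Longer genes were called higher more often. By total exon length, from a median of 2.26 kb to 10.96 kb, the share called higher was 11.7%, 13.7%, 15.8%, 19.2% and 23.2% in 5 successive equal groups, and without vincristine replicate 4 it ran from 11.5% to 26.5%. The share called lower stayed between 17.5% and 19.2%, and was 23.9% in the shortest group without that library. Libraries of one group also differed along length. In the group of longest exons their mean differences from the untreated mean ran from -0.07 to 0.08 untreated and from -0.08 to 0.09 with vincristine. By GC content the pattern did depend on vincristine replicate 4. The share called higher fell from 19.6% in the lowest group to 9.69% in the highest, but without replicate 4 it was 14.7% and 18.7%, the opposite order. The 229 zinc finger genes of chromosome 19 were higher in 64 cases and lower in 14, with a median of 0.13, and 54 and 20 without replicate 4.

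The same dose and time were used in Control gRNA neurons, which share no library with WT but were sequenced deeper, at 38.9 to 88.4 M counts. There 17.1% of 20759 genes were called higher and 18.1% lower. Of the 2753 genes called higher in WT and tested in both, 1817 (66.0%) were called higher in Control gRNA and 19 lower. These 1817 are 55.1% of the genes called higher in Control gRNA. Of 2603 called lower, 1850 (71.1%) were lower again and 28 higher, and they are 49.6% of those called lower in Control gRNA. Across the 16927 genes tested in both, the fold changes correlated with r = 0.65, a description over genes, which are not independent.

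Several groups had close values in both. Tubulins had a median of -1.53 in WT and -1.35 in Control gRNA, cholesterol genes -1.02 and -1.05, and AP-1 and ATF factors 0.82 and 0.76. ATF3 rose by 3.98 and 3.48, and CREB5 by 2.58 and 2.44. BH3-only genes had medians of 2.26 and 1.10, with HRK at 2.98 and 2.18, and the clustered protocadherins 0.18 and -0.13. The medians were 1.88 and 1.27 for the integrated stress response, 0.78 and 0.38 for serine, folate-linked and amino acid synthesis, 0.36 and 0.10 for the synthetases, and 0.27 and 0.36 for the amino acid transporters. In that order 14, 11, 12 and 8 members were called higher in WT and 13, 12, 11 and 11 in Control gRNA. Called lower were 0, 3, 2 and 2 in WT and 2, 1, 5 and 2 in Control gRNA. The integrated stress response list and the AP-1 and ATF list each held 1 gene called in opposite directions in the 2 lines. Single genes of the stress and amino acid lists, chosen after their values were seen, had unlike values. SLC7A11 had 5.11 in WT and 1.73 in Control gRNA, PHGDH 2.38 and 0.38, CHAC1 2.88 and 0.56, CARS1 1.50 and 0.34, STC2 4.08 and 1.53, and ATF4 1.09 and -0.10. Other genes had higher values in Control gRNA, such as ABCB1 (4.14 and 6.05), KCNA1 (2.97 and 5.58) and VIM (1.48 and 2.80). MYC was called lower in WT (-0.73) and higher in Control gRNA (0.64). The experiments have separate tables, lines and depths, and the differences between them were not tested. Their libraries also differed in make-up. Small non-coding RNA held 1.78% to 3.10% of counts in WT and 0.0076% to 0.014% in Control gRNA. The 20 genes with most counts held 14.5% to 18.7% in WT and 9.22% to 10.0% in Control gRNA.

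**Figure D5:**
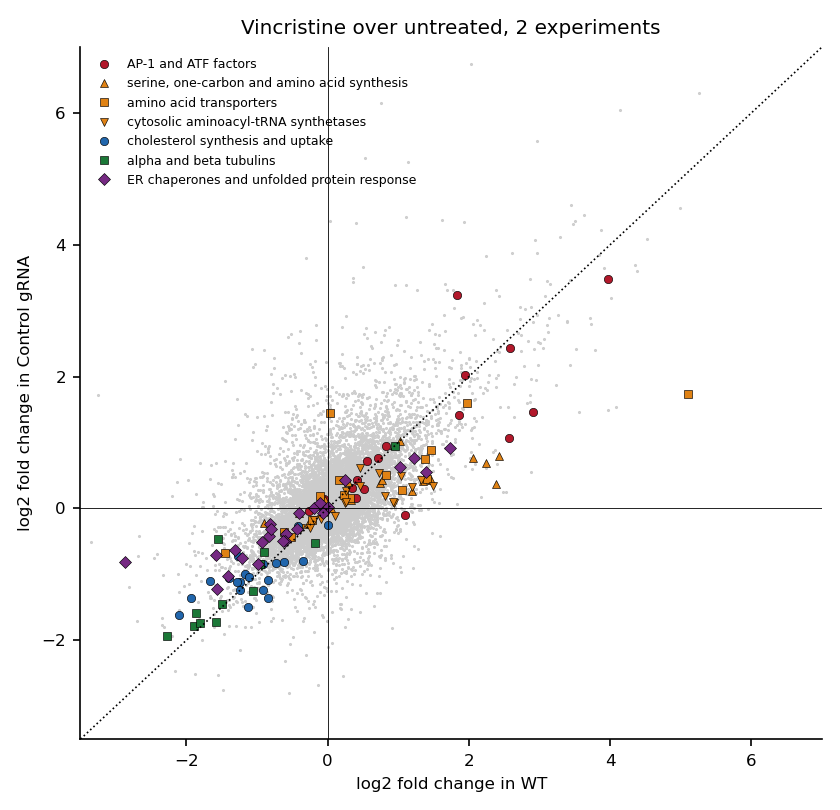
Log2 fold change with vincristine in WT (horizontal axis) and in Control gRNA (vertical axis) for the 16927 genes tested in both (grey), with 7 gene lists coloured and the line of equality dotted. Cholesterol genes and tubulins lie near the line at the lower left, while SLC7A11 (orange square at 5.11 and 1.73) and several other amino acid genes lie below it.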

How the data were processed

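Total counts per gene and library were used as deposited. Per the submitters' processing notes, the authors used cutadapt 3.4, STAR and featureCounts of Subread 2.0.1 with GRCh38, and their count tables hold raw read counts per GENCODE identifier. The strand setting and the handling of multi-mapped reads are not given in the sources used here, so overlapping, antisense and near-identical genes are uncertain. Of 58440 identifiers, 58320 were paired with a symbol and 56933 had the same version, chromosome and start in GENCODE 29.

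Counts were analysed with edgeR 4.0.16 (R 4.3.3): filterByExpr by group, TMM factors and the 2-sided robust quasi-likelihood test, with all 32 libraries of the experiment in one fit and Benjamini-Hochberg adjustment over all genes. The SE of a log2 fold change was taken as its size over the root of the F value. Control gRNA was fitted likewise in its own table of 29 libraries. The code was tested on simulated counts. Depth ran from 9.65 to 14.65 M counts in WT, and counting error adds to the spread of genes under a few CPM.

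Calls need an adjusted p under 0.05. The gene lists and named genes were chosen with earlier results of these data known. Named were the 10 highest and 10 lowest fold changes (called, mean log2 CPM of at least 1, libraries apart), the 8 largest rises and falls in CPM among such genes, up to 4 called members of each list in each direction, and all tested members of the AP-1, BH3-only, BCL2, DLK-JNK, integrated stress response, tubulin and intermediate filament lists. Some genes within these rules are not reported here. Other list members are named to complete a count, and they and the promoter examples were chosen after their values were seen. Promoter sequences are from RefSeq (GRCh38.p14). Alternatives were RLE factors, DESeq2 1.42.0, no filter, a mean of at least 1 CPM, a replicate block, a fit without the other groups, and omission of each library in turn. Same-numbered WT libraries deviated from their group means with correlations of -0.41, 0.25, -0.14 and -0.41, so the numbers were not taken as pairs.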

Additional observations from a re-analysis of the deposited data

Results flagged for a closer look

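A single library of a group of 4 was set far from the other 3 in 67 of 842 groups examined, by Dixon's criterion at 95%. Chance flags about 1 in 20 groups, and 36 of the 67 values came from vincristine replicate 4 and 15 from untreated replicate 4. Values are CPM, and their part in the results was not tested beyond the fits without each library. Far is meant relative to the range of the 4 values, so the difference in CPM can be small. BCL2L1 in untreated replicate 4, for instance, stood at 63.9 against 65.25 to 65.33 in the others.

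Vincristine replicate 4 lay far above the other 3 libraries of its group for ATF2 at 170.4, CEBPG at 292, DNAJC3 at 12.9, DUSP14 at 7.33, EPB41L4A-AS1 at 52.5, EPRS1 at 356, GARS1 at 438 and HSPA9 at 418. So did the values of IARS1 at 336, KIF2A at 248, LARS1 at 230.2, MALAT1 at 35100, MAPRE2 at 367, MTHFD2 at 318, PSAT1 at 64.0 and RPS29 at 104. The same held for SARS1 at 642, SPAG9 at 544, SPCS3 at 68.8, SRSF3 at 152, TARS1 at 331 and TRA2B at 341.

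Vincristine replicate 4 lay far below the other 3 libraries of its group for DUSP4 at 76.5, DUSP7 at 9.27, GRIK3 at 12.7, HYOU1 at 117, INA at 1065, MAP1A at 317, MAP2K7 at 26.5 and NEFH at 6.04. So did the values of POU4F2 at 36.5, RET at 10.7, RRP12 at 33.9, RRP9 at 6.36, TRAF4 at 54.0 and UNC13A at 133.

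Untreated replicate 4 lay far above the other 3 libraries of its group for ATF7 at 32.2, EPB41L4A-AS1 at 34.6, GABRG3 at 11.2, GRIA1 at 13.4 and SLC7A6 at 73.2.

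Untreated replicate 4 lay far below the other 3 libraries of its group for ATF1 at 8.15, BCL2L1 at 63.9, CCT7 at 191, DNAJB1 at 51.3, IARS1 at 186, MAFG at 37.9, PDIA4 at 102 and SNAP25 at 89.5. So did the values of WARS1 at 82.3 and XBP1 at 33.0.

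In untreated replicate 1 the values that stood far from the other 3 were those of KCNH5 (8.22, above the others), MZT1 (32.5, above the others), NMNAT1 (4.30, below the others), PER3 (25.6, above the others) and PSAT1 (21.2, above the others). In untreated replicate 2 the values that stood far from the other 3 were those of BIK (0.186, above the others), JUNB (7.74, above the others), MAP3K12 (94.3, above the others), MAPK8IP1 (201, above the others) and NEUROD2 (21.5, below the others). In untreated replicate 3 the values that stood far from the other 3 were those of SLC38A1 (448, above the others). In vincristine replicate 1 the values that stood far from the other 3 were those of MCL1 (110.4, below the others). In vincristine replicate 2 the values that stood far from the other 3 were those of BDNF (4.86, below the others) and SOX2 (25.6, above the others). In vincristine replicate 3 the values that stood far from the other 3 were those of KCNA3 (5.56, above the others) and PHOX2A (0.0869, above the others). BIK and PHOX2A rest on very few counts.

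MYC, a growth-promoting transcription factor, had all 4 vincristine libraries below all untreated ones in WT (log2 fold change -0.73) and all 5 above all untreated ones in Control gRNA (0.64). The difference between the 2 lines was not tested.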

How the results depend on the processing

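The counts of WT genes called stayed within 1.5 times the main counts with RLE factors, DESeq2, either other filter and a replicate block (2746 higher and 2513 lower). Leaving out 1 library gave 2429 to 3132 higher and 2230 to 2918 lower. A fit of only the 8 WT libraries gave 1879 and 1650, and adding the replicate block to that fit, an alternative chosen after seeing the data, gave 1113 and 939. In Control gRNA the counts ran from 3276 to 3584 higher and from 3457 to 3607 lower without 1 library, and none of the alternatives moved them by more than 1.5 times. Of the 383 named genes called in WT, 253 were called the same way in every alternative and 130 lost the call in at least 1. None changed direction in any alternative. Same-numbered libraries were not pairs by label, so calls lost under the block do not mean a weaker effect. At 9.65 to 14.65 M counts, genes near 1 CPM had about 10 to 15 counts a library, and small changes in them were not detectable.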
